A study of Mus musculus with 186 samples.

Results

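Kit, Aldh1a3, Cd14, Cd55 and Lcn2 are named as markers of luminal progenitors of the mammary gland, and their messenger RNA was followed here in single epithelial cells of the adult mouse. The 5 genes were chosen by name, with earlier results of these data known. All 5 were found in the count files and passed the filter on low values, among 14773 genes tested and 25275 genes with a symbol. Luminal progenitors are the cells of the inner, milk-facing layer that still divide and give rise to alveolar cells. Mature luminal cells of the same layer carry the receptors for oestrogen and progesterone, and basal cells form the outer, contractile layer. Kit is the receptor tyrosine kinase for stem cell factor. Cd14 and Cd55 are anchored to the cell surface by a lipid, the former as a co-receptor for lipopolysaccharide and the latter as a brake on the complement cascade. Lcn2 is a secreted protein that binds bacterial siderophores and so withholds iron. Aldh1a3, which oxidises retinaldehyde to retinoic acid, is an enzyme of the cytosol and neither lies on the surface nor is secreted.

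The cells came from untreated adult FVB/NJ mice and were sorted fresh, without culture. Basal cells were gated as Lin- CD29hi CD24+ and luminal cells as Lin- CD29lo CD24+, where Lin- removes cells with blood and endothelial surface markers. Each cell was captured on the Fluidigm C1 chip, which makes full-length cDNA from 1 cell per site. In all, 96 basal and 90 luminal cells from 8 mice were profiled, on 3 PCR plates. Plate A held basal cells, plate C luminal cells and plate B both. No label ties a cell to a mouse, so each population counts as 1 sample without replicates, and no difference between populations was tested. Total counts per cell ranged from 3105 to 3784407. The thresholds of the study kept 72 basal cells (50 on plate A, 22 on plate B) and 76 luminal cells (24 on plate B, 52 on plate C). Kept basal cells had 69933 to 1968860 reads and kept luminal cells 105636 to 3226961. The sort held by keratins, since Krt14 was at 1944 CPM (the count scaled to the total reads of the population) in basal and 47.5 CPM in luminal cells, and Krt18 at 122 and 3055 CPM. Among 10 endothelial markers, a summed level of 100 CPM or more was found in 6 basal cells, all on plate B, and in 4 luminal cells, all on plate C. Fibroblast markers (10 genes, Dcn the most abundant) summed to 904 CPM in basal cells and 1818 CPM among luminal ones, and 33 basal and 25 luminal cells held 100 CPM or more of them. Dcn alone was at 585 and 932 CPM, with a read in 53 basal and 54 luminal cells at full depth. Fbln1 of this list (39.9 and 3.69 CPM) is also among the basal signature genes of the study. A level of 100 CPM thus does not by itself make a cell a fibroblast. Basal markers reached 100 CPM in 20 luminal cells.

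Between the sorted populations, 4 of the 5 genes were luminal and 1 was not. Kit, Aldh1a3, Cd14 and Cd55 were at least 2-fold higher in luminal cells, whereas Lcn2 stood at nearly the same level in both. Of all tested genes 28.4% were at least 2-fold higher on the luminal side and 18.3% on the basal side, with a median log2 ratio of 0.18. On plate B alone these values were 41.4%, 17.2% and 0.48. Over all plates the median log2 ratio of the 5 genes was 5.55. Ratios are of luminal over basal CPM of summed counts, with 1 CPM added to each side. Their intervals are at 95% and cover counting error of reads only, not the spread between cells or mice. These libraries carry no molecular identifiers, so copies of a molecule can count as separate reads, and the intervals do not allow for this.

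Kit (Entrez 16590, chromosome 5, 75574987 to 75656722) was at 3.29 CPM in basal cells against 45.4 in luminal cells, a log2 ratio of 3.43 (3.26 to 3.60) or 13.8-fold. The lowest and the median luminal cell had 0 CPM and the highest 1213 CPM. Kit was thus carried by a minority of luminal cells, and the 4 cells with most reads held at least 50% of its 5179 luminal reads. Luminal cell 50, on plate C, alone held 26.8% of them, and without it the luminal level was 33.6 CPM. This cell held 609 CPM of basal markers beside 8107 CPM of luminal markers. In basal cells, 274 of 277 Kit reads lay in a single cell, number 20 on plate A. Without that cell 3 basal reads remained and the log2 ratio was 5.48. On plate B basal cells had no Kit read, and against a limit of 3 counts luminal cells there were 134-fold higher. This limit covers counting error of reads only, and 0 of 22 basal cells allows up to 15.4% of cells with a read. The luminal level on plate B rests on luminal cell 24, which held 68.2% of the Kit reads there. Without it that level was 4.92 CPM, or 45.9-fold against the same limit. Cell 24 held 5646 CPM of fibroblast and 472 CPM of macrophage markers beside 7112 CPM of luminal markers. Kit also differed between the luminal plates, at 14.3 CPM for plate B against 60.2 CPM for plate C.

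Aldh1a3 (Entrez 56847, chromosome 7, 66390892 to 66427477) was at 0.618 CPM in basal cells against 74.7 in luminal cells, a log2 ratio of 5.55 (5.36 to 5.72) or 121-fold. The median luminal cell had 0 CPM, the upper quartile 1.28 CPM and the highest cell 1860 CPM. It was the most concentrated of the 5 genes, with at least 50% of its 8522 luminal reads in 3 cells. Luminal cell 54, on plate C, held 38.8% of these reads, and without it the luminal level was 46.4 CPM. This cell held 38474 CPM of fibroblast markers, the most of any luminal cell, and 233 CPM of luminal markers, so its sort label did not match its markers. Without all cells at 100 CPM or more of fibroblast markers (33 basal, 25 luminal), Aldh1a3 had no basal read and was at 42.5 CPM in luminal cells. All 52 basal reads lay in 2 cells of plate A, and without cell 51 the basal level was 0.169 CPM and the log2 ratio 6.02. Basal cells of plate B had no read, a difference of 518-fold there against the limit of 3 counts, which covers counting error of reads only.

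Cd14 (Entrez 12475, chromosome 18, 36725064 to 36726815) was at 4.42 CPM in basal cells against 286.5 in luminal cells, a log2 ratio of 5.73 (5.59 to 5.87) or 64.8-fold. Luminal cells spanned 0 to 4630 CPM with a median of 4.84 CPM. The distribution was broad, since 23 of 76 luminal cells were at 100 CPM or more and 53 had at least 1 read at full depth. The luminal level was 286.6 CPM (B) and 286.5 CPM (C) by plate. Luminal cell 45 held 27.7% of all luminal reads and 40.8% of those on plate C, and without it plate C was at 173.9 CPM. Of 372 basal reads 202 lay in basal cell 20, the cell that also held the Kit reads, and 93 in basal cell 82. Without cell 20 the basal level was 2.05 CPM and the log2 ratio 6.56.

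Cd55 (Entrez 13136, chromosome 1, 130429798 to 130465009) had the highest ratio of the 5 genes with 1 CPM added, but not with 10 CPM added (3.40, against 4.36 for Cd14) nor once basal cell 20 was left out of Cd14. It stood at 0.452 CPM in basal cells against 100.6 in luminal cells. The log2 ratio was 6.13 (5.94 to 6.29), or 223-fold. Luminal cells ranged from 0 to 562 CPM with a median of 1.43 CPM. Its reads were the most evenly spread of the 4 luminal genes, since 7 cells were needed to reach 50% of 11478 luminal reads and the top cell held 9.08%. This top cell was luminal cell 24, with 5646 CPM of fibroblast and 472 CPM of macrophage markers. Luminal cell 54, with 38474 CPM of fibroblast markers, was at 469 CPM of Cd55. On plate B alone the log2 ratio was 5.16 (4.83 to 5.48), below that of Cd14 there (6.04) and of Aldh1a3 (5.82). Basal cells had 37 Cd55 reads on plate B and 1 on plate A.

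Lcn2 (Entrez 16819, chromosome 2, 32384637 to 32387739) did not follow the other genes. It was at 1279 CPM in basal cells against 1253 in luminal cells, a log2 ratio of -0.03 (-0.05 to -0.01). The ratio was -0.04 on plate B and -0.03 for plate C luminal over plate A basal cells, so Lcn2 did not separate these sorted populations and went against its name as a luminal marker there. The spread over cells differed in shape. Basal cells ranged from 0 to 5324 CPM with a median of 1018 and quartiles of 420 and 1726 CPM. Luminal cells ranged from 0 to 15667 CPM with a median of 313 and quartiles of 1.73 and 1479 CPM. Lcn2 was thus at a moderate to high level in nearly every basal cell, and in luminal cells it was split between high and near 0. At 10 CPM or more it was found in 67 of 72 basal and 50 of 76 luminal cells. Luminal cell 81, on plate C, held 17.5% of the luminal reads, and without it the log2 ratio was -0.29. Without the top basal cell, number 43, the ratio was 0.05, and it was 0.28 without the cells holding fibroblast markers and 0.13 without the luminal cells holding basal markers. The sign of this small difference thus turned with the cells included.

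**Figure D1:**
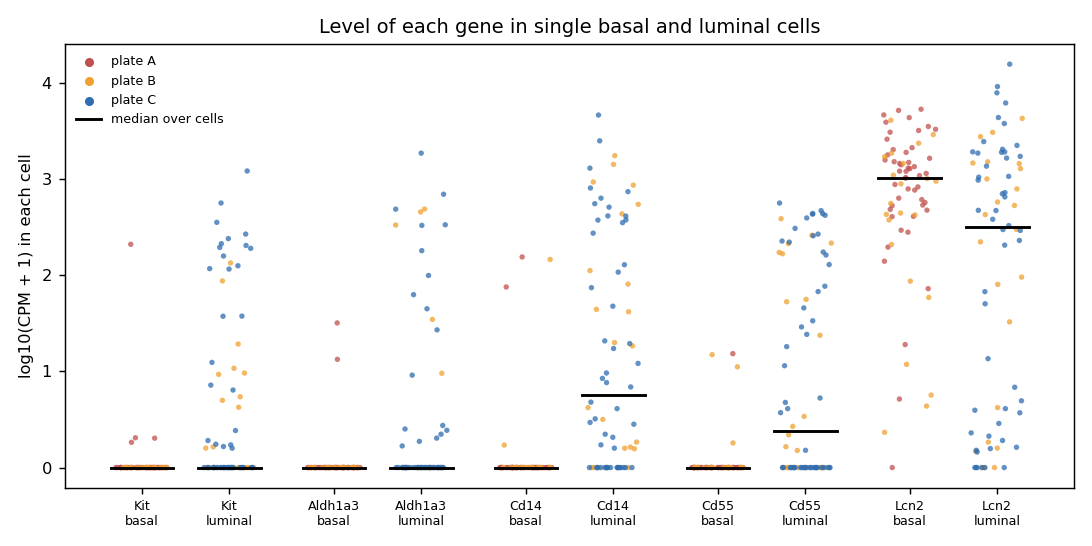
Level of each gene in single cells as log10(CPM + 1), for 72 basal and 76 luminal cells; each point is a cell, coloured by PCR plate, and the black bar is the median over cells. Kit, Aldh1a3, Cd14 and Cd55 sit at 0 in nearly all basal cells, whereas Lcn2 has a median of 1018 CPM in basal cells against 313 in luminal cells.

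Levels of different genes were compared per length, as RPKM (CPM per kilobase of counted exon). In luminal cells Lcn2 led with 1469 RPKM, followed by Cd14 with 191 RPKM, Cd55 with 39.8 RPKM, Aldh1a3 with 22.0 RPKM and Kit with 8.76 RPKM. In basal cells Lcn2 was at 1499 RPKM and the other 4 genes were between 0.179 and 2.95 RPKM. With 1 sample per population the order has no replicate check, and over single luminal cells the ranges of all 5 genes overlapped, each starting at 0.

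Cd55 has a neighbour of nearly the same name, Cd55b (Entrez 13137, chromosome 1, 130388526 to 130423097), a second copy of the complement regulator that lies next to it on the same strand. The sequences before both genes are shown because they share long stretches while the levels lie far apart. They run from 250 to 55 bases before the transcript start given by RefSeq for GRCm38.p6, on the minus strand, chr1:130462799-130462994 for Cd55 and chr1:130423098-130423293 for Cd55b. Neither window overlaps an exon of GENCODE vM21, and that of Cd55 lies inside the wider span RefSeq gives the gene. Capitals mark runs of 8 or more bases that are the same in both in a global alignment.
Cd55: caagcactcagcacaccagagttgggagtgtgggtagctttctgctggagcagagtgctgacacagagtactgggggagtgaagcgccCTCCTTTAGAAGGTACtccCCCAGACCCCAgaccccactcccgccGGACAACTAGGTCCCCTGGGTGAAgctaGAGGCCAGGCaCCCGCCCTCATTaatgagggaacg
Cd55b: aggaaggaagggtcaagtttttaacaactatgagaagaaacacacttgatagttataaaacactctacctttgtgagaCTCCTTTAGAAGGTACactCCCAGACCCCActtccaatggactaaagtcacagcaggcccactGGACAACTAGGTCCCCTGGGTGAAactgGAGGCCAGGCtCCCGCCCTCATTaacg
Of 196 bases in each window, 73 lay in such shared runs, and 134 of 225 alignment columns (59.6%) were identical. Both windows hold 1 match to the GC box CCGCCC (either strand), which 23.8% of 27025 promoter windows of the same length hold. The TATA box TATAAA was matched in the Cd55b window alone, against 9.35% of all windows.

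Cd55b had no read in basal cells and 289 in luminal cells (2.53 CPM, 1.91 RPKM). This was 71.0-fold above the basal limit of 3 counts, which covers counting error of reads only. On the RPKM scale this compares with 39.8 for Cd55. At 50000 reads per cell Cd55b was detected in 3 luminal cells and Cd55 in 34. The transcripts are alike in part: 5.50% of the 100-base windows of the longest Cd55 transcript and 13.6% of those of Cd55b occur unchanged in the other gene. Reads from these stretches could be counted for either gene or for neither, so the Cd55b value is uncertain.

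Detection was compared at equal depth, with each cell thinned to 50000 reads. The libraries still differed, with a median of 2615 genes detected per thinned basal cell and 3386 per thinned luminal cell. On plate B these medians were 1571 and 3225.5, and basal cells of plate A had 2918. The part of this in the shares was not tested. At this depth Kit was detected in 22 of 76 luminal cells (28.9%, exact interval 19.1 to 40.5), Aldh1a3 in 14 (18.4%, 10.5 to 29.0), Cd14 in 32 (42.1%, 30.9 to 54.0) and Cd55 in 34 (44.7%, 33.3 to 56.6). The same genes were detected in 1, 1, 3 and 2 of 72 basal cells. Among these were cell 20, with luminal keratins, and cells 82 and 95, with endothelial markers, so the basal shares are not a plain background. These intervals cover counting error in 1 sample per population, and the difference was not tested. Lcn2 went the other way, with 51 luminal cells (67.1%, 55.4 to 77.5) and 66 basal cells (91.7%, 82.7 to 96.9). By plate, its basal share was 96.0% (A) and 81.8% (B).

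Depth set how many cells counted as positive. With all reads kept, the share of luminal cells came to 46.1% for Kit, 30.3% for Aldh1a3, 69.7% for Cd14, 55.3% for Cd55 and 88.2% for Lcn2, and the basal shares were 5.56%, 2.78%, 5.56%, 5.56% and 98.6%. In luminal cells Cd14 moved ahead of Cd55 at full depth, and at 50000 reads the intervals of the pair overlapped. Taken by plate (B, then C), the luminal shares were 25.0% and 30.8% for Kit, 16.7% and 19.2% for Aldh1a3, 50.0% and 38.5% for Cd14, 41.7% and 46.2% for Cd55, and 70.8% and 65.4% for Lcn2. All 5 plate pairs had overlapping intervals.

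**Figure D2:**
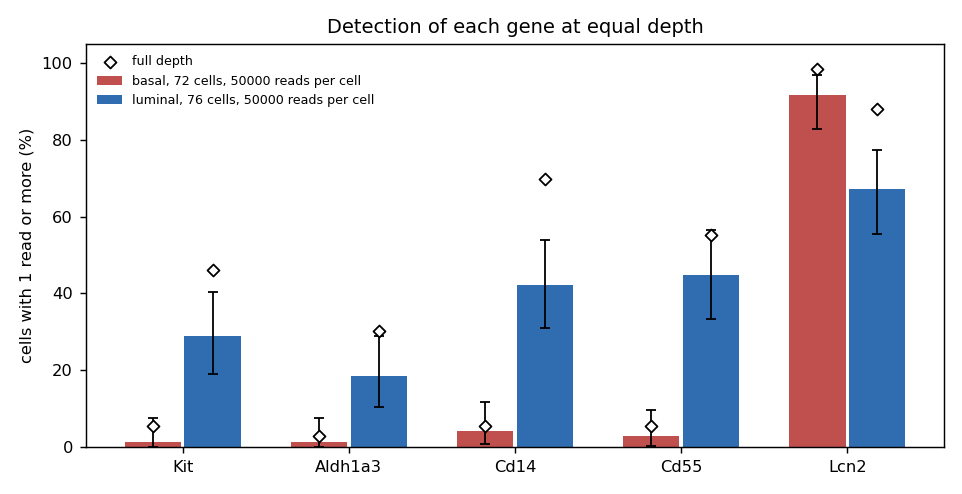
Share of cells with 1 read or more of each gene, in percent, in 72 basal and 76 luminal cells thinned to 50000 reads per cell; error bars are exact 95% binomial intervals for counting error and diamonds give the share at full depth. Kit, Aldh1a3, Cd14 and Cd55 reach 18.4% to 44.7% of luminal cells and at most 4.17% of basal cells, and Lcn2 reaches 67.1% and 91.7%.

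A total of 13 basal cells held at least 1 read of Kit, Aldh1a3, Cd14 or Cd55 at full depth, and they were looked at after their values were seen. Cell 20 on plate A carried 209 CPM of Kit, 154 CPM of Cd14 and 789 CPM of Lcn2. It also held luminal keratins (Krt18 at 914 CPM, Krt19 at 1134 CPM) beside basal genes, with 10645 CPM for the 10 basal markers in sum. The Aldh1a3 reads lay in cells 51 and 44, and 76 reads of Cd14 in cell 58, each with a summed basal marker level of 4143 CPM or more. Fibroblast markers summed to 321 CPM in cell 51, 348 CPM in cell 44 and 478 CPM in cell 58. A level of 100 CPM or more of these was reached by 33 of 72 basal cells. Cell 51 also held 91.1 CPM of macrophage markers. The cells with endothelial markers, numbers 72, 82 and 95, all lay on plate B. Cell 82, with 93 Cd14 reads, had 762 CPM of endothelial markers and 23.4 CPM of basal markers. Cells 72 and 95, with 21 and 15 Cd55 reads, had 3062 and 1487 CPM of endothelial markers. Thus 36 of the 38 basal Cd55 reads came from cells with endothelial markers, whose part in the basal level was not tested. Without all cells holding 100 CPM or more of endothelial or macrophage markers (6 basal, 6 luminal, a choice made after seeing the data, as were those on fibroblast and basal markers), the log2 ratio was 6.54 for Cd55 and 5.99 for Cd14.

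Cd14 is also known from macrophages, Kit from mast cells and Lcn2 from neutrophils. Reads of such cells were few. The 10 macrophage markers summed to 4.32 CPM in basal cells against 19.9 in luminal cells, most of the latter from Cd68 (17.3 CPM), with Fcgr1 and C1qb at 0. Of 32 luminal cells with a Cd14 read, 2 had a macrophage marker read at 50000 reads per cell. The 10 neutrophil markers summed to 0.820 and 1.74 CPM, with Retnlg and Ngp at 0, and none of the 51 luminal cells with a Lcn2 read had a read of them at that depth. The 10 mast cell markers summed to 10.7 and 11.0 CPM, of which Gata2 and Hdc, both expressed beyond mast cells, made up nearly all, and Tpsb2 was at 0. Of 22 luminal cells with a Kit read, 4 had a read of this list. Of 4 luminal cells at 100 CPM or more of it, 3 had a Kit read, 4 Aldh1a3, 4 Lcn2, 2 Cd55 and 1 Cd14. Of 4 luminal cells at 100 CPM or more of endothelial markers, 3 had a Kit read, 3 Aldh1a3, 3 Lcn2, 1 Cd55 and 1 Cd14. The part of these cells in the Kit and Aldh1a3 values was not tested. Cd55 reads moved with the summed macrophage markers across luminal cells (rho 0.35). Of 34 luminal cells with a Cd55 read 7 had a macrophage marker read, and their part in the Cd55 values was not tested. Fibroblast markers were at 100 CPM or more in 14 of 34 luminal cells with Cd55 (rho 0.21) and in 7 of 14 with Aldh1a3 (rho 0.29). In the 51 luminal cells below that level, Cd55 was at 68.2 CPM and detected in 39.2% of cells, and Aldh1a3 was detected in 13.7%.

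Within luminal cells the 5 genes did not form a single block. Of 10 pairs, 3 had a Spearman's rho of 0.3 or more across the 76 cells: Cd14 with Lcn2, Kit with Lcn2 and Kit with Cd14. The other 7 pairs, among them every pair with Cd55 or Aldh1a3, lay between 0.00328 and 0.23, which in counts this sparse is no finding. At full depth and at 100000 reads Kit with Aldh1a3 also passed 0.3, which made 4 pairs. These values describe cells that share mice, sort and plates, and carry no test.

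Cd14 and Lcn2 were the pair most alike, with a rho of 0.59 over all luminal cells, and 0.76 and 0.54 on plates B and C. Of 32 cells with a Cd14 read 30 also had a Lcn2 read, which is 39.5% of the 76 cells (28.4 to 51.4), while multiplying the separate shares gives 28.3%. This product lay just outside this interval. The gap of 11.2 percentage points lay above all 20 other thinning draws, which gave 5.19 to 10.8 points. The count of such pairs varied too, and over those draws between 0 and 2 of the 10 pairs had a product outside the interval. At full depth none did, but for Cd14 and Lcn2 this was fixed by the separate shares. Had all 53 cells with Cd14 also held Lcn2, the interval would start at 58.1%, below the product of 61.5%. At 50000 reads the joint shares of Kit with Lcn2 and of Aldh1a3 with Lcn2 could likewise not stand clear above their products. The rank correlation was steadier and stayed between 0.49 and 0.64 over the 20 draws. Part of it came from cells that had neither gene, and among the 51 luminal cells with a Lcn2 read the rho was 0.45.

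Kit went with the same pair more weakly. Its rho was 0.35 with Lcn2 (0.45 on plate B, 0.32 on plate C) and 0.33 with Cd14 (0.44 and 0.32). Of 22 cells with a Kit read 20 had Lcn2 and 14 had Cd14. Among the 51 cells with a Lcn2 read the rho of Kit and Lcn2 was 0.14. Kit and Aldh1a3 had a rho of 0.23, or 0.01 (B) and 0.30 (C) by plate, and 0.07 once cells holding 100 CPM or more of endothelial or macrophage markers were left out and 0.03 without those holding fibroblast markers. It was higher with more reads, at 0.32 for 100000 reads per cell and 0.36 at full depth, and ranged from 0.18 to 0.40 over the 20 other draws. Basal markers moved with Kit to the same degree (rho 0.35, with a read in 16 of 22 Kit cells), and 19 of the 20 luminal cells at 100 CPM or more of them had a Lcn2 read. Without these 20 cells the rho of Kit was 0.39 with Lcn2 and 0.42 with Cd14. Cell depth moved with Kit, whose thinned reads had a rho of -0.30 with the total reads of the cell, and for the other 4 genes this rho lay between -0.08 and 0.24. The part of depth in these pairs was not tested.

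Cd55 stood apart from the other genes. Its rho was 0.06 with Cd14, 0.00328 with Kit, 0.10 with Lcn2 and 0.19 with Aldh1a3. Cd14 and Cd55, which are both used as surface markers of luminal progenitors, were found together in 15 luminal cells (19.7%, 11.5 to 30.5), against a product of 18.8%. The product lay well inside this interval. On plate B, 2 of the low pairs were higher, Cd55 with Lcn2 at 0.35 and Aldh1a3 with Lcn2 at 0.34, whereas plate C gave 0.00831 and 0.00155. Aldh1a3 was likewise near 0 with Cd14 (0.07) and Lcn2 (0.09).

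**Figure D3:**
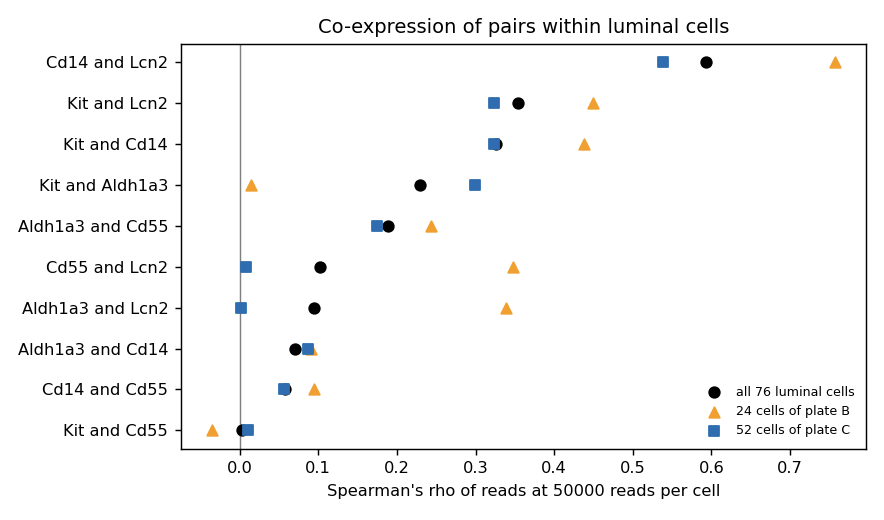
Spearman's rho of each of the 10 pairs of genes across luminal cells thinned to 50000 reads, over all 76 cells (circles) and on plate B (triangles) and plate C (squares) alone. Cd14 with Lcn2 lies highest on each plate (0.76 and 0.54), the pairs of Kit with Cd14 and Lcn2 lie between 0.32 and 0.45, and pairs with Cd55 or Aldh1a3 lie lower over all cells.

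Counted per cell, 13 of 76 luminal cells (17.1%, 9.43 to 27.5) had none of the 5 genes at 50000 reads, 16 had 1, 16 had 2, 22 had 3, 6 had 4 and 3 had all 5. The 31 cells with 3 or more made up 40.8% (29.6 to 52.7), or 54.2% (plate B) and 34.6% (plate C). Leaving out Lcn2, 9 cells had 3 or 4 of the remaining genes and 19 had none. The sets found most often were Cd14, Cd55 and Lcn2 in 9 cells, Cd55 and Lcn2 in 7, and Kit, Cd14 and Lcn2 in 6, with Lcn2 alone in another 6. At full depth 1 luminal cell had none and 46 (60.5%) had 3 or more. In basal cells Lcn2 alone was the rule, in 62 of 72 cells at 50000 reads, and 4 had none.

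Set against other genes of the same layer, Kit, Cd14 and Lcn2 leaned towards the progenitor side. The lists were chosen with earlier results of these data known, so this lean is a description and not independent support. Of 12 other luminal progenitor genes, 11 were at least 2-fold higher in luminal cells (median log2 ratio 4.70), as were 11 of 12 mature luminal genes (6.05), beside 28.4% and 0.18 over all tested genes. Across luminal cells, rho was taken with the 10 progenitor and 12 mature genes detected in at least 20% of cells. The median rho of Lcn2 was 0.50 with the progenitor genes and -0.19 with the mature genes. Kit had 0.34 and -0.14, and Cd14 had 0.34 and -0.04. Aldh1a3 (0.12 and -0.08) and Cd55 (0.11 and 0.02) were closer to the medians over all genes so detected, which lay between 0.03 and 0.06. A value of 0.3 or more was reached by 9 of the 10 progenitor genes with Lcn2, 7 with Cd14, 6 with Kit and 0 with Aldh1a3 or Cd55.

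**Figure D4:**
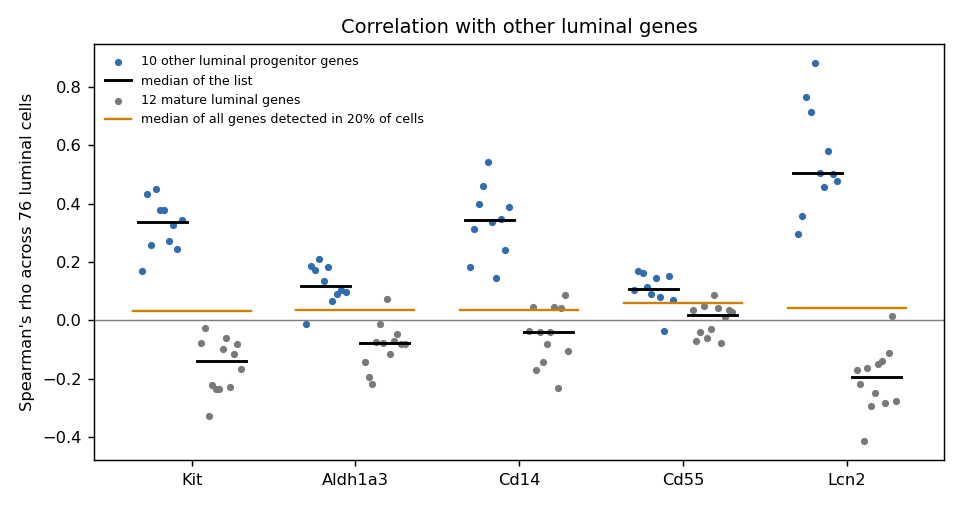
Spearman's rho of each of the 5 genes with 10 other luminal progenitor genes (blue) and 12 mature luminal genes (grey) across 76 luminal cells; each point is a gene, black bars are list medians and orange bars the median of all genes detected in 20% of cells. Lcn2, Kit and Cd14 have progenitor medians of 0.50, 0.34 and 0.34, and Aldh1a3 and Cd55 have 0.12 and 0.11.

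Lcn2 was most like Trf, Csn3 and Wfdc18, all of them on the list of luminal progenitor genes above, which was not drawn up independently of these data. The 3 genes of highest rho among those detected in at least 20% of luminal cells were Trf, the iron carrier transferrin (0.88, with 0.77 on plate B and 0.92 on plate C), Csn3, the milk protein kappa-casein (0.77, with 0.74 and 0.78), and Wfdc18 (0.71, with 0.69 and 0.73), a small secreted protein with a whey acidic protein fold. The 2 lowest were Prlr, the prolactin receptor (-0.41), and Ptn, a secreted growth factor (-0.41). Among the 51 luminal cells with a Lcn2 read the rho was 0.71 with Trf, 0.61 with Csn3 and 0.35 with Wfdc18. In basal cells, where Lcn2 was high, these partners were not. Trf was detected in 21 of 72 basal cells, Csn3 in 8 and Wfdc18 in 7, and the rho of Lcn2 there was 0.19 (0.11 on plate A, 0.44 on plate B), 0.08 and -0.09. Trf was at 382 CPM in basal cells against 3670 in luminal cells.

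**Figure D5:**
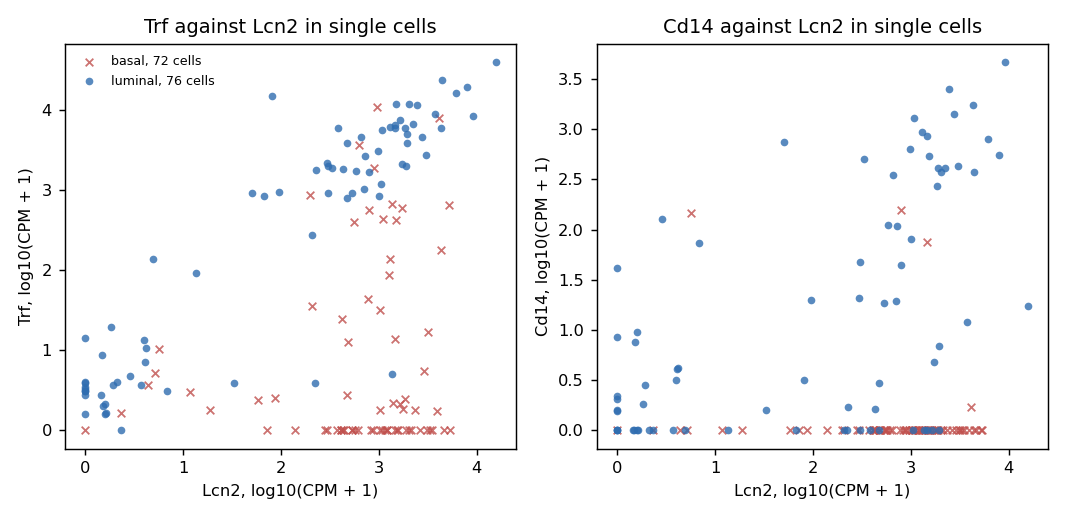
Trf (left) and Cd14 (right) against Lcn2 in single cells, all as log10(CPM + 1) at full depth, for 72 basal cells (crosses) and 76 luminal cells (circles). Luminal cells fall into cells low and cells high in both Lcn2 and Trf (rho 0.88 at 50000 reads), whereas basal cells are high in Lcn2 with Trf at or near 0 in most.

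The genes most like the other members differed from gene to gene. For Cd14 they were Lcn2 (0.59), Trf (0.54) and Nfib (0.53), a transcription factor, and the lowest were Vmp1 (-0.40) and Clic1 (-0.35). For Kit they were Kctd3 (0.54, but 0.07 on plate B), Tsc22d3 (0.53), induced by glucocorticoids, and Nav3 (0.49). The lowest for Kit were Mmp14 (-0.43), a membrane-bound matrix protease, and Nup210 (-0.37). For Aldh1a3 they were Selenow (0.46, but 0.10 on plate B) and Azin1 (0.46), with Gm5088 (-0.33) and Sema4b (-0.31) lowest. For Cd55 they were Arl4a (0.48), Scara5 (0.43), a receptor for ferritin, and Eif2s3x (0.42), with Arglu1 (-0.38) and Angptl4 (-0.33) lowest. Each is an extreme of 5699 or 5700 genes, so the sizes are the most that this search gave.

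The partners of each gene were followed on lists of known function, all as log2 ratios of luminal over basal CPM. They are to be read against the 28.4% of all tested genes called luminal, the 18.3% called basal and their median of 0.18. Values of plate B are to be read against those of that plate, 41.4%, 17.2% and a median of 0.48. Of 9 Kit signalling genes, 4 were at least 2-fold higher in luminal cells, 2 in basal cells and 3 within 2-fold (median -0.01). Kitl, the Kit ligand, was at 1007 CPM in basal cells against 401 in luminal cells (-1.33, with -1.49 on plate B). The ligand was thus higher in basal cells and the receptor in luminal cells, but the ligand was common in both populations. Kitl was read in 60 of 72 basal and 54 of 76 luminal cells at 50000 reads. The adaptor Sh2b3 was also higher in basal cells (-1.24, with -0.87 on plate B). Lyn (3.73), a Src family kinase, and Ptpn6 (3.55), a phosphatase, were higher in luminal cells.

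For Aldh1a3, 10 of 14 genes of retinoid metabolism and response could be tested, of which 4 were higher in luminal cells, 3 in basal cells and 3 within 2-fold (median 0.80). Dhrs3, which turns retinaldehyde back to retinol, was at 259 CPM in basal cells against 766 in luminal cells (1.56, but 0.17 on plate B). The retinoic acid receptor Rarb was at 26.5 CPM in basal cells and 0.289 CPM in luminal cells, with a read in 4 basal cells at 50000 reads and a ratio of 0 on plate B.

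For Cd14, 4 of 8 genes of the lipopolysaccharide receptor complex were higher in luminal cells, 1 in basal cells and 3 within 2-fold (median 1.31). Tlr4, the signalling receptor, was at 2.40 CPM in basal cells against 47.8 in luminal cells (3.84), but plate B gave -1.71, and it was detected in 12 luminal cells. Lbp, the serum protein that hands lipopolysaccharide to Cd14, had a ratio of 2.08 (1.57 on plate B). The adaptor Myd88 was at 146.5 and 65.5 CPM (-1.15, but 0.05 on plate B).

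For Cd55, 10 of 11 complement genes could be tested, of which 5 were higher in luminal cells, 2 in basal cells and 3 within 2-fold (median 0.79). Cd59a, which blocks the last step of the cascade, went the opposite way to Cd55, with 187 CPM in basal cells against 47.3 in luminal cells (-1.96, with -2.04 on plate B). Adgre5, which encodes a receptor that binds Cd55, was at 2.33 and 31.2 CPM (3.27, with 0.77 on plate B). The component C3 was at 116 and 374 CPM (1.69, with 0.48 on plate B).

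For Lcn2, 6 of 14 partners and secreted antimicrobial genes could be tested, of which 3 were higher in luminal cells and 3 within 2-fold (median 1.20). Hp, the haemoglobin carrier haptoglobin, was at 0.475 CPM in basal cells against 109 in luminal cells (6.22, with 5.67 on plate B). Pigr, which carries antibodies across the epithelium, was at 0.0238 and 15.4 CPM (4.00, with 4.27 on plate B). Slc22a17, a receptor for Lcn2, was at 8.46 and 11.2 CPM (0.37, but -1.19 on plate B) and was read in 2 basal and 6 luminal cells at 50000 reads.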

How the data were processed

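Counts were analysed for 186 cells of 2 sorted populations. The authors mapped read pairs to mm10 with Subread, and assigned them with featureCounts to its built-in RefSeq annotation, and deposited raw counts per gene and cell, with a counted exon length. Versions are not given in the sources used here. The library kit does not mark strand, so overlapping and antisense genes may share reads. The study viewed capture sites by microscope, and no doublet caller was run.

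Symbols came from RefSeq (GRCm38.p6, the assembly of mm10). Left out were identifiers without a symbol (1904, 1.94% of counts), 15 mitochondrial genes and 123 genes of ribosomal proteins. Cells were kept at 50000 reads and 1000 genes (basal) or 100000 reads and 1500 genes (luminal), and genes at 1 CPM in at least 3 cells. Cells were thinned without replacement (seed 1). No pair of the cells had identical counts. Levels carry exact Poisson intervals and shares exact Clopper-Pearson intervals. A called gene differs at least 2-fold. No test was run, since no cell is tied to a mouse.

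The 5 genes and all lists were chosen with earlier results of these data known. Text names the 5 genes, list genes at 10 CPM or more in either population, and for each member the 3 highest and 2 lowest rho of equal sign on both plates. Some genes that this rule names are not reported here. Alternatives covered filters, scaling (edgeR 4.0.16 TMM and median-of-ratios factors), depth, threshold, plates and draws. Ratios, thinning and rho were tested on simulated data. Python 3.11.15, NumPy 2.4.6, SciPy 1.17.1 and R 4.3.3 were used.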

Additional observations from a re-analysis of the deposited data

Results flagged for a closer look

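The 24 basal and 14 luminal cells below the thresholds entered no comparison. In them 4 of 10 values lay above what a count of 0 allows (11.3 CPM for the basal and 7.27 CPM for the luminal ones). Lcn2 was at 436 CPM in these basal cells, with a read in 19 of 24, and at 133 CPM in these luminal cells, with a read in 12 of 14. Cd14 was at 17.0 CPM in the luminal cells, from 7 reads in 3 cells, and Kit at 9.70 CPM, from 4 reads in 2 cells.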

How the results depend on the processing

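No paired analysis was possible because no result comes from a test, and a number found in both populations only names a cell. A ratio counted as moved when it left its Poisson interval, which is narrow. Of 70 alternative ratios 31 stayed inside, 39 moved and none of the 4 luminal genes changed direction. TMM factors lowered every ratio by 0.21 before the added CPM and median-of-ratios factors by 0.18. Kit was at 3.25 with TMM factors, 3.88 by the mean of cells, 3.75 and 2.06 with 0.1 and 10 CPM added, 3.94 on plate B, 3.21 without cells holding endothelial or macrophage markers (an alternative chosen after seeing the data) and 5.06 without the top cell of each population. Aldh1a3 was at 6.70 and 3.00 with 0.1 and 10 CPM, 5.82 on plate B and 5.34 without the top cells. Cd14 was at 5.54 and 5.56 with the scaling factors, 5.46 by the mean of cells, 5.99 and 4.36 with 0.1 and 10 CPM, 6.04 on plate B, 5.99 without the marker-holding cells and 6.12 without the top cells. Cd55 was at 5.86 by the mean of cells, 7.51 and 3.40 with 0.1 and 10 CPM, 5.16 on plate B, 6.76 for plate C over plate A, 6.54 without the marker-holding cells and 6.30 without the top cells. Lcn2 was at -0.10 with mitochondrial and ribosomal protein genes kept, -0.24 and -0.21 with the scaling factors, -0.12 by the mean of cells, -0.10 without the marker-holding cells and -0.20 without the top cells. Further alternatives chosen after seeing the data left out cells holding fibroblast markers, which gave 2.75 (Kit), 5.49 (Cd14), 5.55 (Cd55) and 0.28 (Lcn2), or luminal cells holding basal markers, which gave 2.95 (Kit), 5.78 (Aldh1a3) and 0.13 (Lcn2).

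Without thinning the luminal shares were 46.1% (Kit), 30.3% (Aldh1a3), 69.7% (Cd14) and 88.2% (Lcn2), 1.32% of cells had no member and 60.5% had 3 or more. At a threshold of 5 reads the shares were 18.4% (Kit), 27.6% (Cd14) and 27.6% (Cd55), with 27.6% and 15.8% for none and 3 or more. At 40 RPKM they were 7.89% (Kit) and 27.6% (Cd55), with 15.8% for 3 or more. These shifts follow from the thresholds. On plate B 54.2% had 3 or more. The number of pairs whose product lay outside the interval, 1 as reported, was 2 at 10 CPM, 0 to 2 over other draws, and 0 without thinning, at 5 reads, at 40 RPKM, with mitochondrial and ribosomal protein genes kept, with cells filtered on depth alone and on either plate alone. Without thinning the separate shares of Cd14 and Lcn2 left no room for a product outside the interval. Pairs with a rho of 0.3 or more numbered 5 on plate B and 4 without thinning. Genes at least 2-fold higher in luminal cells made up 14.6% with 10 CPM added. For the remaining shifts the cause was not tested. Joint shares minus products were judged by the exact interval of the joint share, which is wide. Of 120 such values none moved, although the gap of Cd14 and Lcn2 fell from 11.2 to 0.36 points without thinning. Pair rho values were judged by their range over the main draw and the 20 other draws. Of 110 such values 20 moved, but the lowest and highest draw of each pair were among the 110 and could not move. Of 75 basal shares, judged by their exact intervals, 12 moved.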

Other observations

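Among the other luminal progenitor genes, some were read in few luminal cells. Foxi1, a transcription factor, had no basal read and 17406 luminal reads, at 153 CPM, yet was detected in 3 luminal cells at 50000 reads and 15 at full depth. Ltf, the iron-binding milk protein lactoferrin, had 1 basal read and was at 60.7 CPM in luminal cells, with a read in 10 cells at 50000 reads. Elf5, a transcription factor of the alveolar lineage, also had 1 basal read and was at 50.2 CPM, in 21 luminal cells. Sox10 was the list gene within 2-fold between populations, with 21.1 CPM in basal cells against 41.8 in luminal cells (log2 ratio 0.95). On plate B, however, its ratio was 5.88, where the median of all tested genes was 0.48.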
